A study of Mus musculus with 7 samples.

Results

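Glycolysis and hypoxia genes were followed across mouse bone marrow: 31 genes, chosen by name from a fixed list, of 31053 gene rows in the count matrices. All 31 symbols were found in all 7 libraries. The list holds glucose transporters, the enzymes from hexokinase to pyruvate kinase, the lactate enzymes and exporter, a kinase that gates pyruvate entry into mitochondria, and genes of the hypoxia response. Marrow of spine, hips, femur and tibia, cleared of red cells by lysis, was profiled by droplet single-cell RNA sequencing of 3′ transcript ends in 4 pools (WBM_1 to WBM_4) of 20 hashtag-marked samples. The sample prefixes name the groups, WTY (3 samples), WTO (4), HRY (3) and HRO (6), with no meaning given for the letters. HRO.5 and HRO.6 (2), described in the series text as chronic samples with mutated TET2, are called chronic here. HR.7 and HR.AE entered no comparison. The sources used here give no strain, age, treatment or shared allele for the groups. They also leave unsaid whether hashtags stand for separate animals, and the p-values therefore cover only the spread among these samples, possibly a technical one.

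Glycolysis splits glucose into pyruvate in the cytosol and yields ATP without oxygen. Hexokinase traps glucose as its phosphate, phosphofructokinase commits it to the pathway, and lactate dehydrogenase returns the NAD that glyceraldehyde-3-phosphate dehydrogenase consumes. In low oxygen, prolyl hydroxylases no longer mark HIF-1α for destruction, and HIF-1 then binds short elements around a core ACGTG or GCGTG near many glycolytic genes. Neutrophils are known to live mainly on glycolysis, and activated monocytes and lymphocytes raise it.

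Promoter windows of RefSeq (build GRCm38.p6, 250 bases before to 50 after an annotated start) were found for 29 of the 31 genes, Slc2a3 and Ndrg1 being without an entry. The letters ACGTG or GCGTG, on either strand, lay in at least 1 window of 27 of these 29 genes (93.1%), against 46.7% of all 27025 genes with a window. By window the shares were 81.4% of 43 and 43.8% of 32851. ACGTG also forms part of CACGTG, the E-box bound by other factors such as MYC. Gpi1 and Tpi1 held no match. A match of letters is a description of the window and no evidence of binding. Shown are windows of 4 genes that were all higher in HRO than in WTO monocytes, 5′ to 3′ on the gene's strand, with matches in capitals, as a lactate dehydrogenase with 7 matches, the first ATP-yielding kinase, the dehydrogenase that makes NADH and the triose isomerase with none. The regions are chr7:46845554-46845853 (plus strand) for Ldha, chrX:106186850-106187149 (plus) for Pgk1, chr6:125165724-125166023 (minus) for Gapdh and chr6:124814109-124814408 (minus) for Tpi1.
Ldha: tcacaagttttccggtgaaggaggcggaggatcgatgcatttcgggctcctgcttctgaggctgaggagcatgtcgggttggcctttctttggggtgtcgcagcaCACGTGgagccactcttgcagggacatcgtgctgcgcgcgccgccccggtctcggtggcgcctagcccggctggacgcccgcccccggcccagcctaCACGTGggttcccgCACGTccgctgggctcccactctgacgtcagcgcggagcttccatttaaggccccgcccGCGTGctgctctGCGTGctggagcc
Pgk1: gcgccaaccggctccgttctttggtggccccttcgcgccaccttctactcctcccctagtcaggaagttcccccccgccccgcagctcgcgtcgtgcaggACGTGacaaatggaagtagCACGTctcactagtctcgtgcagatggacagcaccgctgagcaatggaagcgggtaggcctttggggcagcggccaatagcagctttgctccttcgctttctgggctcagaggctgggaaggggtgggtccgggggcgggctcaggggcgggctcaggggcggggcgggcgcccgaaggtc
Gapdh: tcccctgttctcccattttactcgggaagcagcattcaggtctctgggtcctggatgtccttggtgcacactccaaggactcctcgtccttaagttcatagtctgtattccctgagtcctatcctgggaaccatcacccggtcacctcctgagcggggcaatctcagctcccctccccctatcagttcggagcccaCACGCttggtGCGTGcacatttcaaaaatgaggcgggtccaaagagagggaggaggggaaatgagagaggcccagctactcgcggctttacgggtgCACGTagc
Tpi1: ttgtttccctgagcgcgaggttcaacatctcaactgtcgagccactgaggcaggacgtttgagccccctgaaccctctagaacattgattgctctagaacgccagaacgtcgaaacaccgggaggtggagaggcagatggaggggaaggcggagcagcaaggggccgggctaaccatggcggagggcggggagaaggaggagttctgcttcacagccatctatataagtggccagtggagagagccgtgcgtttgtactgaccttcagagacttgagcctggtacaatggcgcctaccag
Of the 7 matches of Ldha, 5 are ACGTG and 2 GCGTG, and CACGTG, which reads the same on both strands and so counts 2 times as ACGTG, occurs 2 times. Pgk1 has 2 ACGTG matches. Gapdh has 1 ACGTG and 2 GCGTG matches.

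Libraries held 25343305 to 95553827 UMIs, and 43024 cells were kept, 928 to 5530 per sample. Cells were named from marker genes after clustering without the members, so every class name stands for cells that resemble the class. Levels below are CPM, the UMIs of a gene scaled by all UMIs of that class in that sample. The median level of a class is over the samples of the 5 groups with at least 20 of its cells. WBM_1 stood apart: its 5 samples had 518 to 763 CPM of 18 cell cycle genes in monocytes, against 3199 to 5402 CPM in the other 14 samples. Its monocytes had 22593 to 46297 CPM of 10 neutrophil transcripts, against 1621 to 15817 CPM elsewhere. Most WBM_1 monocytes also lay in a cluster of their own (cluster 4, 92.3% from WBM_1). WBM_3a and WBM_3b shared 2078 cell barcodes, of which the copy with fewer UMIs was removed.

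Across the marrow, no class was lowest or highest for all steps of the pathway. Of the 31 genes, 9 had their highest median level in granulocyte-monocyte progenitors, 6 in mature neutrophils and 5 in stem or multipotent progenitors. Nonclassical monocytes and basophils led for 3 each, T or NK cells for 2, and monocytes, erythroid cells and plasmacytoid dendritic cells for 1 each. The mean level of the 31 genes, as log2(CPM + 1), had medians from 3.99 in plasma cells to 5.66 in granulocyte-monocyte progenitors. Monocytes (4.79 to 5.87 over 18 samples, median 5.55), mature neutrophils (4.72 to 6.09, median 5.59) and these progenitors (5.17 to 6.02) overlapped. These levels describe the classes and were not tested. The classes drew on different samples and pools, basophils for example on WBM_1 and WBM_2 alone. In monocytes the WBM_1 samples had 4.79 to 5.25 and those of the other pools 5.39 to 5.87. The order of the classes thus also depends on the pools in each class.

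Slc2a3, which encodes the high-affinity glucose transporter GLUT3, marked neutrophils. Its level was 229 to 860 CPM (median 519) in mature neutrophils and 69.6 to 273 CPM (median 158) in immature ones, 18 samples each. In monocytes it was 3.07 to 22.5 CPM, the lowest median of the 13 classes. The lactate exporter Slc16a3 (median 251 CPM) and Pfkfb4 (104 CPM), which makes the activator of phosphofructokinase, also had their highest median in mature neutrophils. Of the hexokinases, Hk3 was 118 to 290 CPM in granulocyte-monocyte progenitors and 115 to 221 CPM in mature neutrophils, against 0 to 35.1 CPM in B lineage cells. Neutrophils and their progenitors thus lay above B lineage cells without overlap for Hk3.

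Among the phosphofructokinases, the platelet-type Pfkp was highest in T or NK cells (47.5 to 212 CPM, median 120) and lowest in erythroid cells (median 5.82 CPM), while muscle-type Pfkm was highest in erythroid cells (14.1 to 68.2 CPM). Gapdh spanned a narrower range of medians, from 300 CPM in plasma cells to 914 CPM in granulocyte-monocyte progenitors, and neighbouring classes overlapped. Gpi1, the isomerase after hexokinase, was 475 to 940 CPM in these progenitors and 362 to 1027 CPM in immature neutrophils. Monocytes had 188 to 434 CPM of Gpi1. Eno3, the muscle enolase, was near absent except in nonclassical monocytes, with 17.3 to 344 CPM (median 144) in 7 samples and medians of at most 6.84 CPM in the other 12 classes. Eno3 was listed at 0 in 8 of 17 T or NK samples.

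Ldha was 114 to 575 CPM in monocytes, and medians ran from 65.4 CPM in plasma cells to 379 CPM in basophils (3 samples). Pdk1, the kinase that blocks pyruvate dehydrogenase, was highest in stem or multipotent progenitors (median 50.8 CPM) and T or NK cells (47.1 CPM) and lowest in immature neutrophils (2.03 CPM). Mif, a cytokine that is also a HIF target, was 580 to 1443 CPM in stem or multipotent progenitors and 442 to 720 CPM in erythroid cells, and 11.7 to 36.2 CPM in immature neutrophils. Progenitor and neutrophil samples did not overlap for Mif. Hif1a itself had its highest median in T or NK cells (151 CPM), where HRO.9 held 965 CPM, above the 37.3 to 286 CPM of the other samples. Vegfa, the angiogenic target, was highest in granulocyte-monocyte progenitors (median 50.1 CPM).

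**Figure D1:**
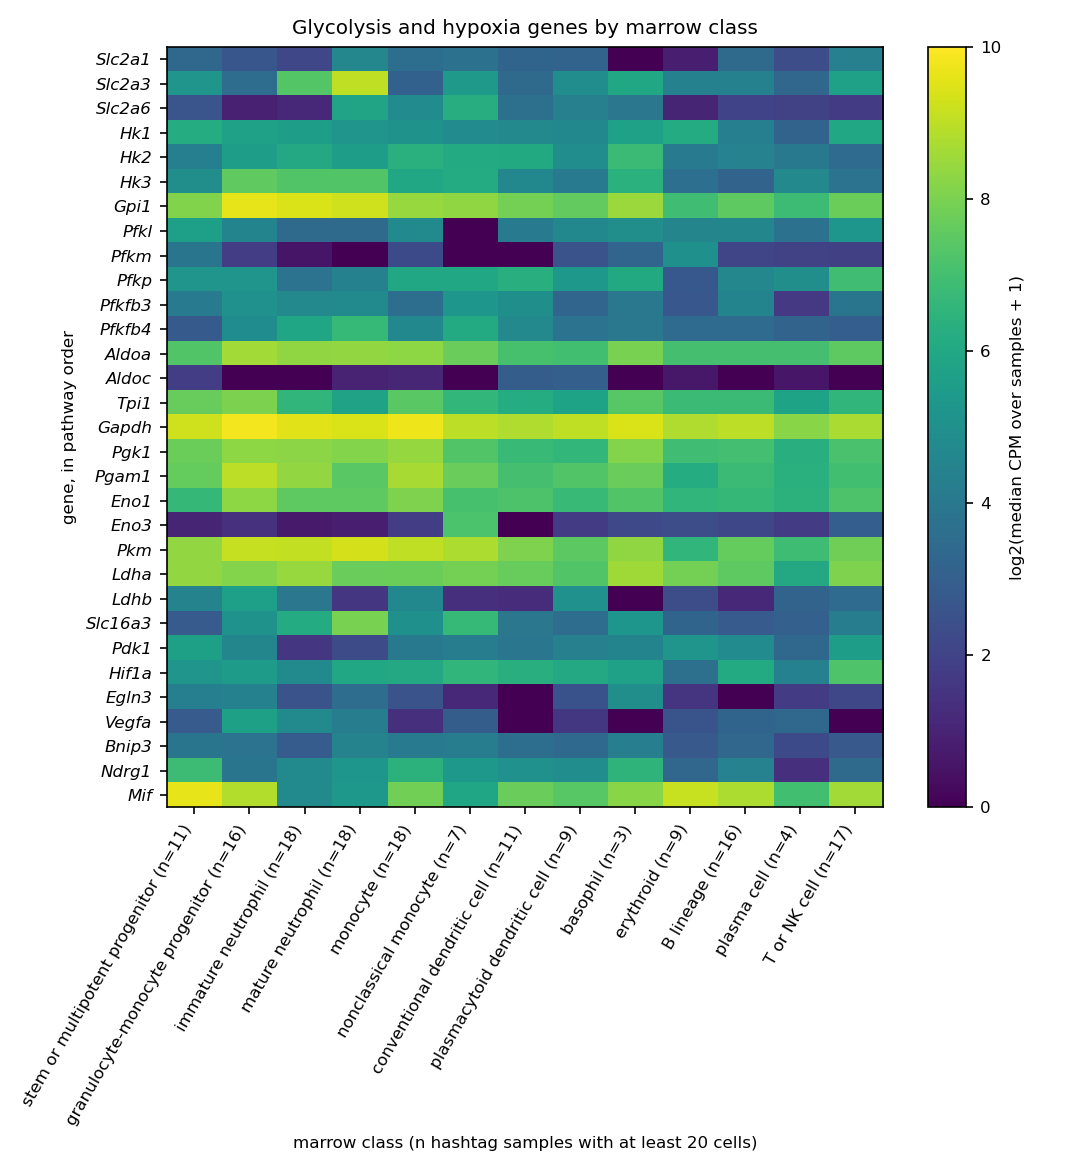
Median level of each of the 31 genes, as log2(median CPM + 1) in colour, in 13 marrow classes (columns, n samples in brackets) with genes in pathway order (rows). Slc2a3 and Slc16a3 are brightest in mature neutrophils, Eno3 in nonclassical monocytes and Mif in stem or multipotent progenitors, while Gapdh and Pkm are bright in most classes.

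In monocytes, 8 of the 29 genes tested were higher in HRO (n = 6) than in WTO (n = 4) by edgeR and none was lower: Pfkl, Aldoa, Tpi1, Gapdh, Pgk1, Pkm, Ldha and Mif. Of all 10164 genes tested, 3.86% were called, 1.99% higher and 1.87% lower. Apart from the cytokine Mif, these genes cover the committing step, 5 of the steps from aldolase to pyruvate kinase, and lactate dehydrogenase. The log2 folds of all 8 ran from 0.57 to 0.97. The median log2 fold of the 29 genes was 0.43, against 0.02 over all genes, and 22 of 29 were positive. At an unadjusted p under 0.05 there were 16 higher and 1 lower, 17 of 29, where 21.7% of all genes fell under it. Aldoc and Eno3 did not pass the filter on low counts. DESeq2 called 11 of the 29, the same 8 and Eno1 and Pgam1 higher and Hk2 lower (log2 fold -0.47, DESeq2 adjusted p = 0.0334). All shares of genes called, here and below, are those of edgeR. None is given for DESeq2, so its counts stand beside no share over all genes. Folds and p-values come from edgeR's quasi-likelihood fit with pool as a term, with Benjamini-Hochberg adjustment over all genes.

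Ldha turns pyruvate into lactate (ENSMUSG00000063229, GRCm38 chromosome 7, 46841475 to 46855627, plus strand). Its level was 118 CPM in WTO.3, 178 in WTO.4, 359 in WTO.5 and 325 in WTO.6, and 282 to 575 CPM (median 429) in HRO. The groups overlap only because HRO.9 lay below WTO.5 and WTO.6 of another pool. Its fold was 1.92 (log2 0.94 ± 0.17, SE, adjusted p = 0.00762). The difference was 0.99 on the log2(CPM + 1) scale within WBM_2 (3 HRO against 1 WTO) and 0.60 within WBM_4 (2 against 2).

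Pkm, the last ATP-yielding enzyme (ENSMUSG00000032294, chromosome 9, 59656368 to 59679375, plus strand), was 347, 470, 564 and 475 CPM in WTO.3 to WTO.6 and 660 to 928 CPM (median 713) in HRO. Every HRO sample lay above every WTO sample. Pkm rose by a log2 fold of 0.67 ± 0.12 (adjusted p = 0.00759), with 0.62 within WBM_2 and 0.41 within WBM_4. Pfkl, the liver-type phosphofructokinase (ENSMUSG00000020277, chromosome 10, 77986947 to 78010083, minus strand), was 2.94, 21.5, 23.3 and 26.7 CPM in WTO.3 to WTO.6 and 36.0 to 57.5 CPM (median 41.2) in HRO. These groups did not overlap either, and the WTO.3 value is a single UMI. The share of all genes without overlap was not computed, so a lack of overlap, here and below, only describes these samples. The log2 fold of Pfkl was 0.97 ± 0.22 (adjusted p = 0.0218).

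Gapdh, which takes up the NAD (ENSMUSG00000057666, chromosome 6, 125161715 to 125166467, minus strand), was 459 CPM in WTO.3, 905 in WTO.4, 1406 in WTO.5 and 1412 in WTO.6, against 1337 to 2103 CPM (median 1660) in HRO. Only HRO.9 of the HRO samples lay below the highest WTO sample. Its log2 fold was 0.81 ± 0.15 (adjusted p = 0.00975). Tpi1, the triose isomerase without a match in its window (ENSMUSG00000023456, chromosome 6, 124810586 to 124814296, minus strand), was 88.3, 149, 225 and 205 CPM in WTO.3 to WTO.6 and 222 to 324 CPM (median 301) in HRO. HRO.9 again lay just inside the WTO range. Tpi1 rose by 0.70 ± 0.14 (adjusted p = 0.0140).

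Pgk1, the first ATP-yielding enzyme (ENSMUSG00000062070, chromosome X, 106187100 to 106203699, plus strand), was 159, 220.1, 339 and 337 CPM in WTO.3 to WTO.6 and 336 to 639 CPM (median 407) in HRO. HRO.10 was the sample at 639 CPM and HRO.9 lay inside the WTO range. Pgk1 was not called without HRO.10, WTO.3 or WTO.4. The log2 fold of Pgk1 was 0.69 ± 0.16 (adjusted p = 0.0286). Aldoa (ENSMUSG00000030695, chromosome 7, 126795234 to 126800751, minus strand), the aldolase that splits the six-carbon sugar, was 250.1, 312, 367 and 397 CPM in WTO.3 to WTO.6 and 393 to 594 CPM (median 480) in HRO. HRO.9 alone lay inside the WTO range, and the log2 fold was 0.57 ± 0.13 (adjusted p = 0.0278). Aldoa was not called without HRO.10, HRO.12, WTO.3 or WTO.4.

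Mif (ENSMUSG00000033307, chromosome 10, 75859353 to 75860240, minus strand) was 127, 233, 401 and 311 CPM in WTO.3 to WTO.6 and 307 to 777 CPM (median 539) in HRO. HRO.7 and HRO.8 were highest and HRO.9 and HRO.10 lay inside the WTO range. Its log2 fold was 0.94 ± 0.25 (adjusted p = 0.0433), with 1.22 within WBM_2 and 0.61 within WBM_4, and the call held without 3 of the 10 samples, each left out in turn. Over the 31 genes, 22 were higher in HRO within WBM_2 (median difference 0.32, all genes -0.12) and 23 within WBM_4 (median 0.23, all genes 0.0043).

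**Figure D2:**
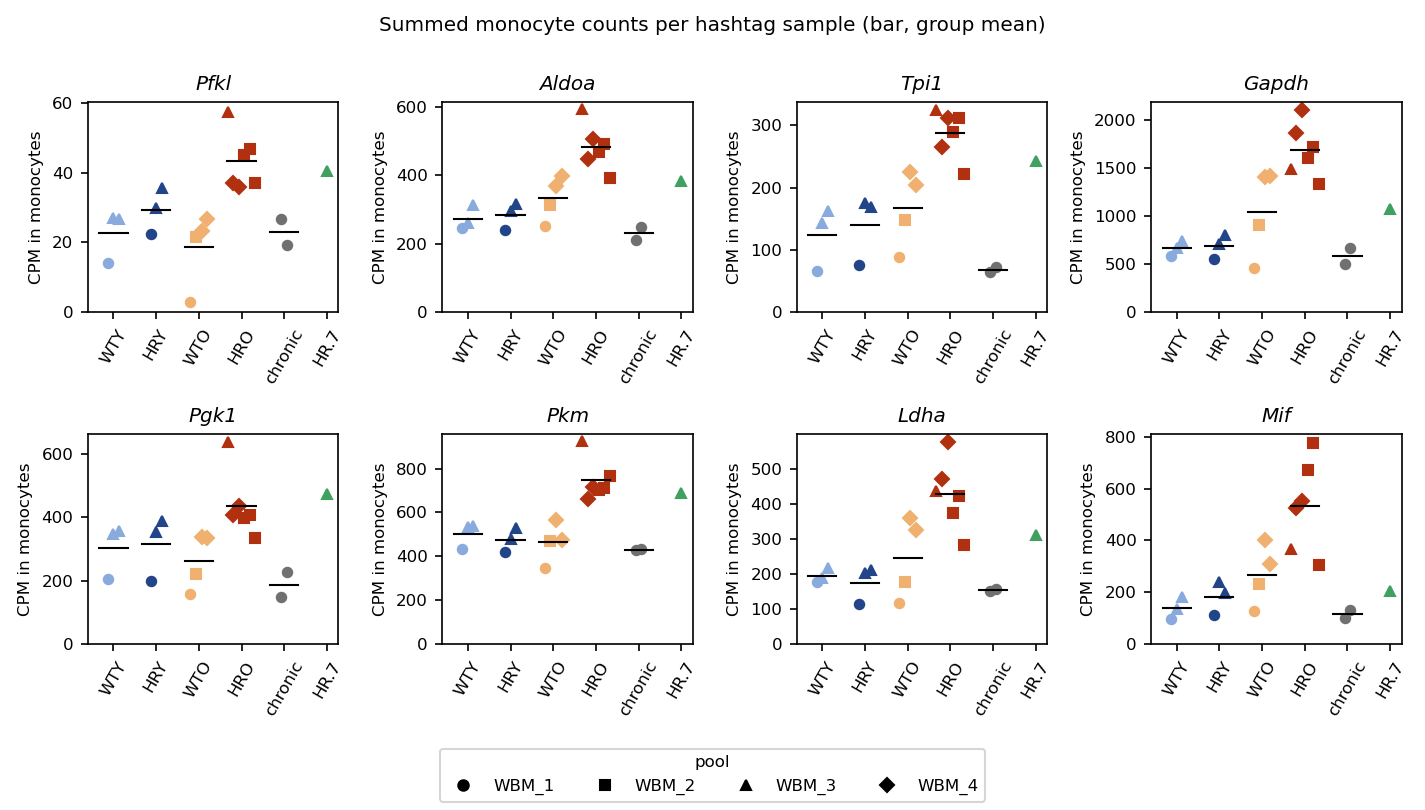
Level of the 8 called genes in monocytes, in CPM on axes from 0, by group, with 1 point per hashtag sample, pool as symbol and the group mean as a bar. WTO.3, of a pool without samples of the HRO group, is the lowest WTO point in every panel. HRO and WTO ranges do not overlap for Pkm and Pfkl, and the share of all genes without overlap was not computed.

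The other genes of the pathway were mixed. Of the phosphofructokinase group, 3 of 5 had positive log2 folds, from -0.34 for Pfkfb4 to 0.97 for Pfkl. Gpi1 and the enzymes from aldolase to pyruvate kinase, 8 tested, all had positive log2 folds, 0.21 to 0.81, with Eno1 at 0.54 ± 0.15 (adjusted p = 0.0532) and Pgam1 at 0.41 ± 0.12 (adjusted p = 0.0591) short of the threshold by edgeR. The hexokinases ran from -0.46 ± 0.14 for Hk2 (adjusted p = 0.0673), the insulin- and hypoxia-responsive form, to 0.27 for Hk1, and none was called by edgeR. Hk2 was 39.0 to 71.6 CPM in HRO and 52.5 to 109 CPM in WTO, so the groups overlapped. Of the transporters, Slc2a1 (GLUT1) was 11.6 to 29.5 CPM in HRO and 6.23 to 9.23 CPM in WTO, without overlap, with a log2 fold of 0.73 ± 0.23 that neither tool called (edgeR adjusted p = 0.0907).

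Hypoxia factors and targets other than Mif had log2 folds of -0.53 to 0.43. Hif1a, the oxygen-regulated subunit, was at 0.43 ± 0.19 (adjusted p = 0.201), and its mitophagy target Bnip3 at 0.43 ± 0.21 (adjusted p = 0.250). Vegfa was 0.16 ± 0.44, Ndrg1 -0.09 ± 0.21 and Egln3, the hydroxylase induced by HIF, -0.53 ± 0.39, none called. Vegfa in monocytes was 0 to 8.63 CPM over 18 samples. Ldhb, the isoform that favours pyruvate, was at -0.34 ± 0.17 (adjusted p = 0.242).

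**Figure D3:**
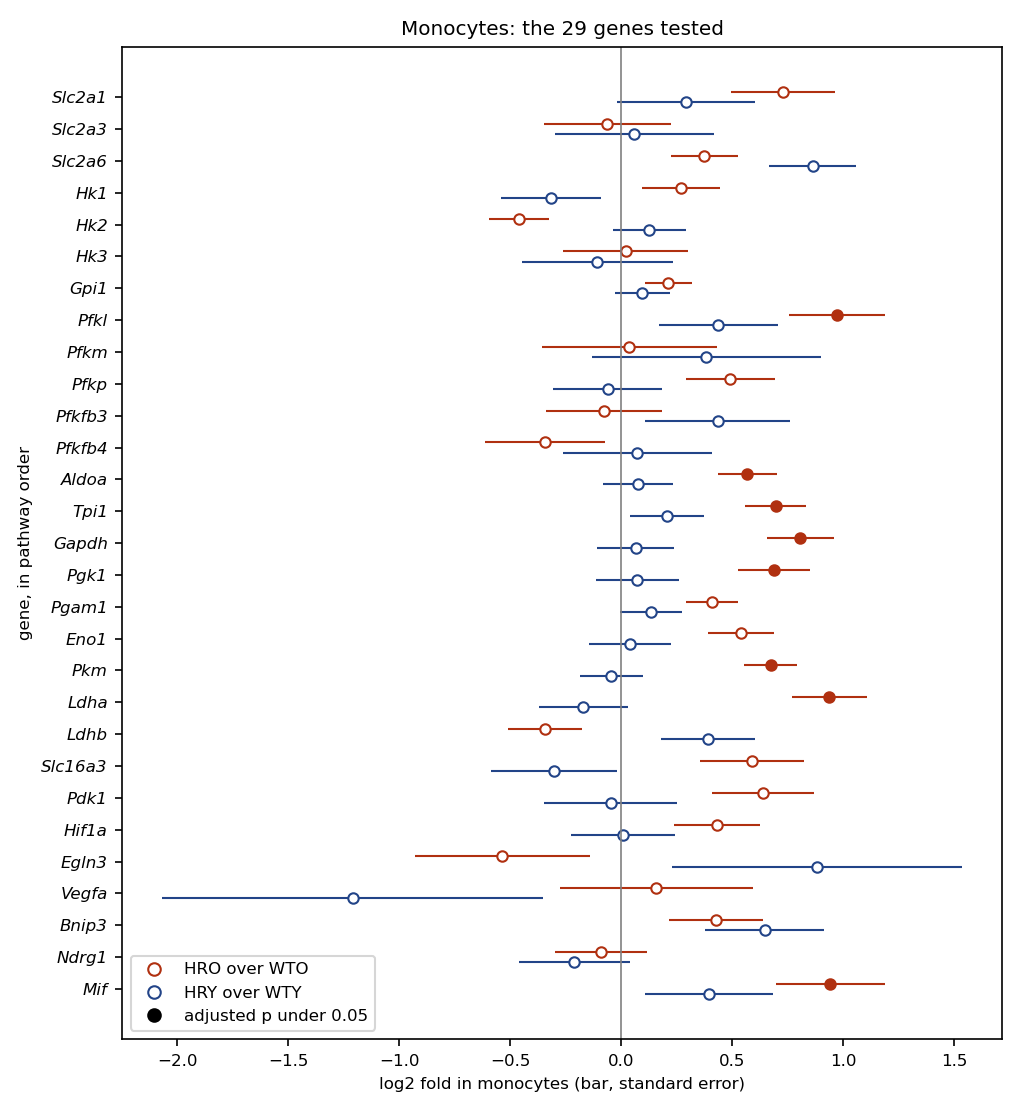
Log2 fold in monocytes (x axis, bars are standard errors) of the 29 genes tested in pathway order (y axis), for HRO over WTO and HRY over WTY, with filled points at an adjusted p under 0.05. The 8 filled points are all HRO over WTO and lie between 0.57 and 0.97, while no HRY over WTY point is filled.

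This count depends on the control of WBM_2. Without WTO.4 none of the 29 genes was called, without HRO.10 or WTO.3 5 were, without HRO.9 15, and without the pool term none. Without the WBM_1 samples 4 of the 8 (Pkm, Ldha, Gapdh and Pfkl) were called. The shares of all genes called in these fits are not given here. HRO monocytes lay on average to 33.4% in cluster 26 and 39.0% in cluster 28, which held 0% and 6.82% of WTO monocytes, while WTO monocytes lay in clusters 4 (25.7%), 5 (34.9%) and 6 (32.6%). Cluster 26 came to 75.4% from HRO.7 and cluster 28 to 65.2% from HRO.9. The median UMI count per monocyte was 7588 to 17429 in HRO and 2587 to 8067 in WTO. The 18 cell cycle genes summed to 3199 to 5402 CPM in HRO and 518 to 4588 CPM in WTO, all 18 detected. The 10 neutrophil transcripts summed to 5302 to 14474 CPM in HRO and 2864 to 29285 CPM in WTO. The 6 B lineage transcripts summed to 144 to 276 CPM in HRO and 359 to 1307 CPM in WTO, without overlap, while the erythroid (5) and T or NK (6) transcripts overlapped. No gene of these lists was at 0 in all samples. The part of these differences in the result was not tested. Fewer transcripts per cell and fewer cells with transcripts cannot be told apart in summed counts.

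A cluster with as many macrophage as monocyte markers (cluster 25, 1521 cells, 78.8% from HRO.7) was left out of the monocytes. Its levels were compared with the monocytes of the same sample as a description. Of the 8 genes, Mif, Pgk1, Ldha, Gapdh and Tpi1 were lower in that cluster in both HRO.7 and HRO.8 (Mif by log2 differences of -1.01 and -1.29), and Pfkl, Pkm and Aldoa higher (Pfkl by 0.30 and 0.39). Over the 31 genes 19 were higher in each sample, with medians of 0.25 and 0.11. The share and median over all genes were not computed for this difference, so the 19 are a description only. Counted among the monocytes, it raised the number of genes of the list called in HRO over WTO to 12. The share of all genes called in that fit is not given here.

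The HRO and HRY samples (n = 3) were set against each other in monocytes, where 8 of 29 genes were higher in HRO and 1 lower, against 2.25% of all 10164 genes called (1.6% higher, 0.649% lower). Higher were Tpi1, Aldoa, Gapdh, Eno1, Pkm, Ldha, the lactate exporter Slc16a3 and the glucose transporter Slc2a1. This comparison shares the HRO samples with the preceding one. HRO and HRY share only WBM_3, so inside a pool 1 HRO sample, HRO.10, stands against HRY.5 and HRY.6.

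Ldhb (ENSMUSG00000030246, chromosome 6, 142490249 to 142507957, minus strand) was the gene that was lower, by a log2 fold of -2.29 ± 0.29 (adjusted p = 0.000781). It was 23.6, 42.0 and 30.5 CPM in HRY.4, HRY.5 and HRY.6, and in HRO 5.79 CPM in HRO.10 and 16.4 to 44.8 CPM in the other 5 samples. HRO.7, HRO.8, HRO.9 and HRO.10 lay below all HRY samples, HRO.11 inside their range and HRO.12 above it. Ldhb was not called without the pool term (log2 fold -0.40, adjusted p = 0.659) or without HRO.10 (-1.50, adjusted p = 0.764). Slc16a3 (ENSMUSG00000025161, chromosome 11, 120948480 to 120960868, plus strand) was 30.4, 27.7 and 46.8 CPM in HRY and 107 CPM in HRO.10, with 26.4 to 52.6 CPM in the other HRO samples. Its log2 fold was 1.43 ± 0.31 (adjusted p = 0.0253). Slc2a1 (ENSMUSG00000028645, chromosome 4, 119108711 to 119137983, plus strand) was 5.63, 11.1 and 13.7 CPM in HRY and 29.5 CPM in HRO.10, with 11.6 to 15.8 CPM in the others, a log2 fold of 1.31 ± 0.32 (adjusted p = 0.0397). In all 3 genes HRO.10 was the extreme HRO sample.

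Ldha was 114, 202 and 209.9 CPM in HRY, below all 6 HRO samples, with a log2 fold of 1.08 ± 0.23 (adjusted p = 0.0210). Tpi1 was 75.4, 176 and 169.5 CPM in HRY, also below all HRO samples (log2 fold 0.96 ± 0.19, adjusted p = 0.0151). Aldoa was 239, 295 and 316 CPM in HRY (0.86 ± 0.18, adjusted p = 0.0192) and Pkm 417, 479 and 530.0 CPM (0.72 ± 0.16, adjusted p = 0.0289), again without overlap. Eno1 (ENSMUSG00000063524, chromosome 4, 150236721 to 150248879, plus strand) was 262, 77.5 and 104 CPM in HRY and 190 CPM in HRO.10 (log2 fold 0.91 ± 0.21, adjusted p = 0.0307). Eno1 was low in all 6 samples of WBM_3, 72.9 to 190 CPM, against 221 to 446 CPM in the other 13. The near-identical Eno1b stayed at 0 to 3.18 CPM in all of them. No gene was called without HRO.10, 1 without HRY.5 or HRY.6, and 3 without HRY.4.

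The contrasts HRY over WTY and WTO over WTY called no gene of the list in monocytes by edgeR or DESeq2. By edgeR, 0% of the 10164 genes were called in either contrast. In HRY over WTY (3 against 3) 2 of 29 were at an unadjusted p under 0.05 (4.76% of all genes), both higher, and the median log2 fold was 0.07 (all genes 0.03). Slc2a6, a lysosomal member of the glucose transporter family, was at 0.86 ± 0.20 (adjusted p = 0.949). In WTO over WTY (4 against 3) 4 were (3.74% of all genes), 3 higher and 1 lower, with a median of 0.08 (all genes 0.0048). The 1 lower was Ldhb at -1.55 ± 0.32 (adjusted p = 0.340). Its levels overlapped, 11.8 to 49.8 CPM in WTO (mean 32.5) and 21.2 to 27.0 CPM in WTY (mean 24.4). The WTO mean of Ldhb was thus the higher one, and the negative fold is that of the fit with pool as a term. The difference of HRO over WTO and HRY over WTY was tested as an interaction, in which no gene of the list was called by edgeR (0.138% of all genes, 0.0787% higher and 0.059% lower) and Ldha and Pkm, both higher, by DESeq2 (DESeq2 adjusted p = 0.0170 and 0.0166). At an unadjusted p under 0.05 there were 8 higher and 2 lower, against 9.45% of all genes, and the median was 0.44 (all genes -0.0046). By edgeR Ldha had a difference of 1.11 ± 0.26 (adjusted p = 0.109) and Pkm of 0.72 ± 0.19 (adjusted p = 0.145). By edgeR, HRO over WTO is thus not shown to differ from HRY over WTY for any of the genes.

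The chronic samples (n = 2) lie in WBM_1 alone, where there is no other HRO sample. In monocytes Ldha was 150 and 156 CPM in HRO.5 and HRO.6, Gapdh 498 and 671 CPM, Tpi1 64.3 and 72.6 CPM and Pkm 429 and 433 CPM, all below every HRO sample. In the fit of chronic over HRO no gene of the list was called by edgeR or DESeq2, nor any of all genes by edgeR (0%). The median log2 fold was -0.50 (all genes -0.0053), with 12 of 29 lower and 1, Ldhb, higher at an unadjusted p under 0.05, where 9.14% of all genes fell. Ldhb is higher only in the fit with pool as a term. Its levels were 15.7 and 24.1 CPM in the chronic samples (mean 19.9), inside the 5.79 to 44.8 CPM of HRO (mean 23.1). Within WBM_1, 21 of the 31 genes were higher in the chronic samples than in WTO.3 (median log2 difference 0.22, all genes -0.02). Against WTY.3 14 were (-0.02, all genes -0.04), and against HRY.4 13 (-0.09, all genes -0.04). Chronic monocytes lay to 98.9% in cluster 4. Apart from the path through WTY, WTO and HRY samples of WBM_1, pool and condition cannot be told apart here.

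No gene of the list was called in the other classes by edgeR, in any of the comparisons. In T or NK cells the mean level of the 31 genes was 5.36 ± 0.34 (SD, n = 6) in HRO and 4.35 ± 0.47 (n = 4) in WTO. The difference of 1.01 was 0.57 with log2(CPM + 10), and HRO.10 (4.78) lay below WTO.4 (4.945). WTO.3 of WBM_1, a pool without samples of the HRO group, was lowest at 3.81. Of 16 genes tested in T or NK cells 7 had an unadjusted p under 0.05, all higher, against 10.6% of all genes, with a median log2 fold of 0.59 (all genes 0.0040). By edgeR 0.0718% of 4177 genes were called there (0.0239% higher, 0.0479% lower), and DESeq2 called 2 of the 16, Gapdh and Pkm. Gapdh was at 1.36 ± 0.33 (adjusted p = 0.143), with 203, 363, 547 and 327 CPM in WTO.3 to WTO.6 and 546 to 1747 CPM in HRO. Pkm was at 0.98 ± 0.24 (adjusted p = 0.146), with 122 to 237.5 CPM in WTO and 215 to 709.7 CPM in HRO. HRO.7 and HRO.8 were highest for both. Cluster 1 held 62.5% of HRO and 14.1% of WTO T or NK cells, and the cell cycle genes in them summed to 789 to 3248 CPM in HRO and 501 to 1219.5 CPM in WTO. HRO samples had 72 to 575 of these cells, with median UMI counts of 1793 to 3915, and WTO samples 21 to 136 cells with 1125 to 3066. The 6 T or NK transcripts summed to 4836 to 7389.5 CPM in HRO and 3776 to 5006 CPM in WTO. Their part was not tested. Within WBM_2 24 of 31 genes were higher in HRO (median difference 0.80, all genes -0.11) and within WBM_4 23 (0.49, all genes 0.29).

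In mature neutrophils 8 of 26 genes had an unadjusted p under 0.05 in HRO over WTO, 7 higher and 1 lower, against 13.5% of all genes (median log2 fold 0.19, all genes 0.02; by adjusted p, 0.751% of 5860 genes called, 0.546% higher and 0.205% lower). Mean levels were 5.73 ± 0.25 (n = 6) and 5.41 ± 0.50 (n = 4) and overlapped. The WTO mean includes WTO.3 of WBM_1 (4.72), a pool without samples of the HRO group. Within WBM_2 12 of 31 genes were higher in HRO (26.3% of all genes) and within WBM_4 21 (61.6% of all genes). Cluster 27 held 66.6% of HRO and 17.7% of WTO mature neutrophils, and its part was not tested. The 1 lower gene was Ndrg1, a stress-response gene, at -0.86 ± 0.23 (adjusted p = 0.0876). In immature neutrophils 1 of 26 was under 0.05, where 11.3% of all genes were (by adjusted p, 0.299% of 8372 genes called, 0.227% higher and 0.0717% lower), with mean levels of 5.29 ± 0.11 and 5.11 ± 0.22. In granulocyte-monocyte progenitors 2 of 27 were, against 9.86% of all genes (by adjusted p, 0.245% of 8560 genes called, 0.199% higher and 0.0467% lower), with 5.71 ± 0.18 (n = 6) and 5.69 ± 0.12 (n = 3). DESeq2 called none of the list in these 3 classes. HRY over WTY called none either in the 4 classes other than monocytes, by either tool, with 0 to 1 genes under 0.05. The only other calls over all genes were 0.0171% in HRY over WTY in mature neutrophils, all higher, and 0.0119% in chronic over HRO in immature neutrophils, all lower.

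**Figure D4:**
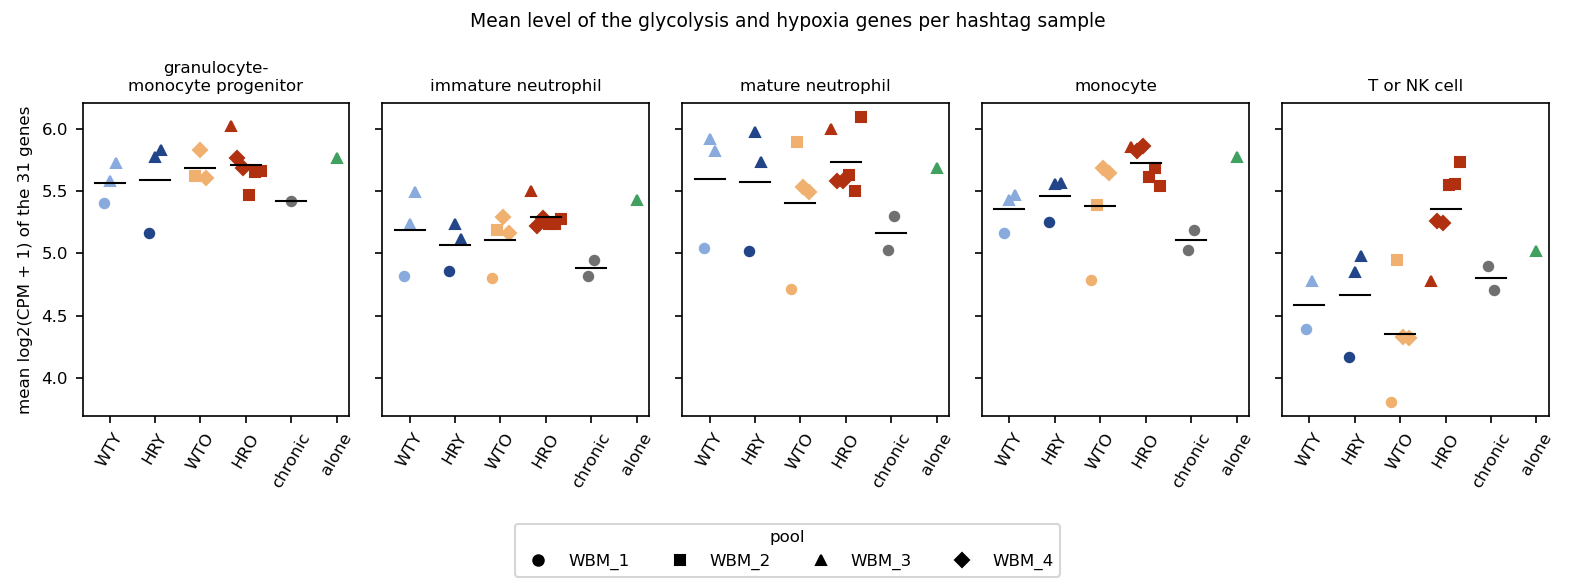
Mean of log2(CPM + 1) over the 31 genes in 5 classes (y axis, not starting at 0), with 1 point per hashtag sample by group, pool as symbol and the group mean as a bar. HRO has the highest group mean in all 5 classes, and its points overlap those of WTO in each. HRO has no WBM_1 sample, while the WBM_1 sample is the lowest of WTY, HRY and WTO wherever it is present. In mature neutrophils WTY.4 (5.92), WTY.5 (5.82) and HRY.5 (5.98) of WBM_3 lie above the HRO mean of 5.73. The order of the group means thus depends on the pools in each group.

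3 further lists were tested. Of 8 pentose phosphate genes, all tested in monocytes, 1 was higher in HRO than in WTO, transketolase (Tkt), at 0.37 ± 0.10 (adjusted p = 0.0495). Of all genes 3.86% were called, 1.99% higher. Tkt was also the only gene of the 8 at an unadjusted p under 0.05, where 21.7% of all genes were. The median of the 8 was 0.20 (all genes 0.02). Of 32 other glucose and pyruvate genes 19 were tested and none called (5 at an unadjusted p under 0.05, where 21.7% of all genes were, median 0.13, all genes 0.02). The monocarboxylate transporters differed in sign there, Slc16a7 at -1.01 ± 0.30 (adjusted p = 0.0703) and Slc16a1 at 0.85 ± 0.31 (adjusted p = 0.134). Of 30 other hypoxia and HIF genes 19 were tested and none called (6 under 0.05, median 0.26, beside the same values for all genes), with Ankrd37 at 1.67 ± 0.50 (adjusted p = 0.0728), Bhlhe40 at 1.17 ± 0.36 (adjusted p = 0.0811) and Cxcr4 at -0.49 ± 0.15 (adjusted p = 0.0828). In mature neutrophils Fam162a, a mitochondrial HIF target, was higher in HRO by 1.31 ± 0.21 (adjusted p = 0.00548), the 1 of 15 tested there. Of all 5860 genes 0.751% were called in that class, 0.546% higher. No other gene of these lists was called in any comparison of the 5 classes tested.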

How the data were processed

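The deposited matrices hold unnormalised UMI counts, a value for each gene and barcode, and the hashtag counts are whole-number counts too, with no normalisation by the authors. Per the file headers, Cell Ranger 3.0.0 wrote WBM_1 and 3.1.0 the other matrices. The tools Cell Ranger, bcl2fastq and Seurat and the build mm10 (GRCm38) are named per the submitters' processing notes. The rule that kept barcodes is not given in the sources used here. Hashtags were called with HTODemux (Seurat 5.3.0, quantile 0.99, centred log-ratio across cells), giving 57944 singlets of 78716 barcodes. Cells under 300 genes (4538) or at 10% or more mitochondrial counts (10363) were removed. Doublets were removed by hashtag only, since Scrublet marked 0% in WBM_3a, WBM_3b and WBM_4.

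Clusters came from scanpy 1.11.5 (2000 variable genes without 18 genes of the pathway lists, 30 components, 20 neighbours, Leiden at resolution 1, no integration) and took the class with most markers found in over 10% of cells at over 2-fold the rest, with at least 3 markers. 5 clusters stayed unnamed, holding 9.89% to 33.7% of the cells of HRO samples and 5.24% to 33.3% of WTO samples. A symbol with 2 identifiers (Aldoa) was read from the more abundant one.

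Sums of counts over the cells of a class in each hashtag sample (at least 20 cells) were tested with edgeR 4.0.16 (R 4.3.3; quasi-likelihood, TMM, filterByExpr, terms group and pool, Benjamini-Hochberg over all genes, threshold 0.05), all groups fitted together. Standard errors are the absolute log2 fold over the square root of F. The test was checked on simulated counts with a change in HRO only and no difference between pools. That check therefore does not cover pool differences such as those of WBM_1. Alternatives included DESeq2 1.42.0, other scaling, filters, hashtag calls, clusterings and each sample left out. Levels are CPM, and mean levels use log2(CPM + 1). Reads shared by pseudogenes or copies of Gapdh, Pgk1, Ldha, Tpi1, Aldoa, Mif and Eno1 make their counts uncertain, as how such reads were treated is not stated.

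Full values are given for members past the threshold (at most the 8 with the smallest adjusted p per comparison and class, Gapdh in HRO over HRY being the ninth), for the member with the highest mean CPM of each step across classes, and for up to 4 genes of each further list. Other genes with values were chosen after their values were seen. The members, lists and tests were chosen with earlier results of these data known. WTO and WTY share the numbers 3, 4 and 5. The deviations of same-numbered monocyte samples from their group means correlated at 0.66, 0.43 and 0.41, which meets the rule for pairing. Differently numbered samples correlated at 0.36 to 0.46 where neither lay in WBM_1, and at -0.63 to -0.42 where 1 did. Same-numbered samples were thus not set apart from the others, and the sign followed WBM_1, which also separates number 3.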

Additional observations from a re-analysis of the deposited data

Results flagged for a closer look

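In monocytes HRO.10 stood off from the other 5 HRO samples for Pgk1 (639 CPM), Slc16a3 (107 CPM) and Slc2a1 (29.5 CPM), by Dixon's test on a gap to the nearest sample of 0.670, 0.675 and 0.766 of the group's range. In immature neutrophils its mean level of the 31 genes, 5.50 on the log2(CPM + 1) scale, was also off by 0.779 of the range. HRO.10 is the only HRO sample of pool WBM_3, so its distance from the other HRO samples cannot be told apart from pool. In immature neutrophils the other WBM_3 samples had mean levels from 5.12 in HRY.6 to 5.49 in WTY.5, with HR.7 at 5.43. 33 groups were tested in this way, and chance marks about 1 in 20. The genes tested were those called in HRO over WTO or HRO over HRY. Pgk1, Slc16a3 and Slc2a1 were not called without HRO.10, so the rate of 1 in 20 does not hold for them.

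HR.7 of WBM_3, in no comparison, had a mean level of 5.78 in monocytes, above the highest of the WTY and WTO samples (5.69).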

How the results depend on the processing

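For HRO over WTO in monocytes (8 genes called), the count was 13 with no filter on low counts, 0 with no pool term, 14 with a per-cell marker gate and, chosen after seeing the data, 4 without WBM_1. Left-out samples gave 0 to 15. All 8 genes kept a positive fold in all 22 alternatives. For HRO over HRY (9) the gate gave 14 and left-out samples 0 to 12. The interaction in monocytes (0) gave 2 with DESeq2, 3 with no filter, 1 at resolution 2, 2 with the gate, 2 without HRO.7 and HRO.8, and 0 to 2 with samples left out. Chronic over HRO in monocytes (0) gave 7 with no filter, 6 with no pool term and 1 without HRO.7 and HRO.8. WTO over WTY in monocytes gave 1 with no filter. HRO over WTO (0 each) gave 1 in immature neutrophils with the gate, 1 in mature neutrophils with no filter and 1 at resolution 2, 1 in progenitors with no filter, and in T or NK cells 2 with DESeq2, 4 with no filter and 0 to 3 with samples left out. The interaction in T or NK cells gave 1 with no filter. The cause of these moves was not tested. The share of all genes called under each setting is not given here. Whether the genes of the list moved apart from other genes thus cannot be read from these counts. The HRO minus WTO mean level in T or NK cells, 1.01, was 0.57 as log2(CPM + 10). In 17 of the 19 comparisons with no call, every left-out sample also gave 0. Chronic over HRO was not run in progenitors, where HRO.5 had under 20 cells. With the replicate block in place of pool, HRY over WTY and WTO over WTY stayed at 0 called genes, so it changed no call; the numbers 4 and 5 shared by HRY and WTY correlated at -0.75 and 0.72, and so pair no samples. No paired analysis was possible because HRO shares no replicate number with WTO, HRY or the chronic samples, which bears on the comparisons with HRO and on the interaction, where a block would absorb each HRO sample. Depth limits Vegfa, Pfkm, Aldoc and Eno3 in monocytes.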
